A study of Mus musculus with 16 samples.

Results

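Described here are 40 interferon-stimulated genes, out of 36528 gene identifiers in the deposited tables, measured in mouse retina 3 days after the optic nerve was crushed. They were taken from a list of named genes and matched to the files by Entrez identifier. No cutoff on a measured value decided membership, but the list was chosen with earlier results of these data known. All 40 were found and all 40 passed the filter on low counts that left 19391 genes for testing. The study compared 4 groups of retinas by RNA sequencing of poly(A) RNA. Crushed inhibitor (n = 5) and uncrushed inhibitor (n = 5) retinas came from mice given GNE-3511, a small-molecule inhibitor of dual leucine zipper kinase (DLK), at 75 mg/kg at 60 and at 68 h after the injury. Crushed vehicle (n = 3) and uncrushed vehicle (n = 3) retinas came from mice given the vehicle, named MCT in the labels. The first dose thus followed 60 h of injury response without the drug. Strain, age and sex of the mice, and which retinas came from the same mouse, were not given in the sources used here, and p-values here cover only how these samples spread.

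Interferons are secreted proteins, and those of type I and type III are released when cells sense foreign or misplaced nucleic acids. Type I and type III interferons act through receptors whose signal reaches the nucleus in a complex that holds STAT2 and IRF9 and binds the interferon-stimulated response element in promoters. Type II interferon, interferon gamma, acts mainly through the gamma-activated site, and it induces IRF1 and the guanylate-binding proteins. The induced genes encode sensors of viral RNA and DNA, enzymes and membrane proteins that block viral replication, GTPases that attack intracellular pathogens, and factors that feed the response forward or end it. In the retina, microglia, Müller glia, blood vessels and neurons can all carry interferon receptors.

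Promoter sequences are shown for 5 of the genes because they carry the binding motifs of these factors or, in 1 case, neither motif. They run 5′ to 3′ on the strand of the gene, from 250 bases before to 50 bases after the annotated start, and come from RefSeq on GRCm38.p6. Capitals mark matches, on either strand, to the core of the interferon-stimulated response element (GAAA, 2 bases of any kind, GAAA) or to TTCNNNGAA, the gamma-activated site, which reads the same on both strands. Overlapping matches were allowed. Gbp2 (chr3:142620413-142620712, plus strand) and Rsad2 (chr12:26456403-26456702, minus strand) each hold 1 response element. Ifit1 (chr19:34640639-34640938, plus strand) holds 2. Bst2 (chr8:71537423-71537722, minus strand) holds 2 that overlap each other and 1 gamma-activated site that overlaps the first of them. Oasl2 (chr5:114896684-114896983, plus strand) holds neither.
Gbp2: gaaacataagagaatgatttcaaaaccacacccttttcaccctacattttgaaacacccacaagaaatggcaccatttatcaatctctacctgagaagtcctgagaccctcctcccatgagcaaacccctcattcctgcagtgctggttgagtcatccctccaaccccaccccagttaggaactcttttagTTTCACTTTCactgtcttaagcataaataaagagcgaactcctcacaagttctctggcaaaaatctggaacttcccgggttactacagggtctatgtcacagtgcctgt
Rsad2: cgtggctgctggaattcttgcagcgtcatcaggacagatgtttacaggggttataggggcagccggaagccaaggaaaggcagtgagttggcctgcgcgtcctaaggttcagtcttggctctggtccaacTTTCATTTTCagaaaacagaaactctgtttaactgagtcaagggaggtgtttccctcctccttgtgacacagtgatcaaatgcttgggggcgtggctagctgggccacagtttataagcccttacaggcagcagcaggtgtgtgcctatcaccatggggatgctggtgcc
Ifit1: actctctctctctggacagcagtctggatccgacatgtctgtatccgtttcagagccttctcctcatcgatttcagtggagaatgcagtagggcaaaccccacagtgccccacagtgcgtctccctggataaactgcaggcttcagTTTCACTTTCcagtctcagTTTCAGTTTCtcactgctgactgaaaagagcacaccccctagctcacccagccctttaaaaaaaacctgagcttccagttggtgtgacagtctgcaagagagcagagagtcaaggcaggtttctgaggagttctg
Bst2: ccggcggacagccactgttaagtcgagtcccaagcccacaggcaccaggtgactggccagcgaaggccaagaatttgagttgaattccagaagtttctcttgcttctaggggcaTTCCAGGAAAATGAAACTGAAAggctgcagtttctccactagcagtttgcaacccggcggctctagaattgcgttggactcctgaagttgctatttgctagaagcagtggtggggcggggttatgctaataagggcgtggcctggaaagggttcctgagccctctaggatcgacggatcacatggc
Oasl2: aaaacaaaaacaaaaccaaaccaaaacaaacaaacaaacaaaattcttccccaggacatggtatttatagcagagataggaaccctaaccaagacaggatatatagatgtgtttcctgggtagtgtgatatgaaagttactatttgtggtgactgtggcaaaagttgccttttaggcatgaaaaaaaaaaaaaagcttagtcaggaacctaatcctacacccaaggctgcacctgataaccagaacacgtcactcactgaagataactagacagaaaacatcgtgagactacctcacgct
Of the 40 genes, 29 matched an entry with a promoter, 33 promoters in all. The response element core was in 16 of the 33 promoters (48.5%), against 1131 of 32851 promoters of all genes (3.44%). In a list of other interferon-induced genes it was in 20 of 50 promoters (40%). The gamma-activated site was in 8 of 33 (24.2%), against 2726 of 32851 (8.30%) of all promoters. Both motifs were in the promoters of Bst2, Gbp5, Gbp7, Igtp and Oas1a. Of the 25 response element matches, 20 lay within 150 bases before the start. A match is a description of these letters and not a measured binding site.

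**Figure D1:**
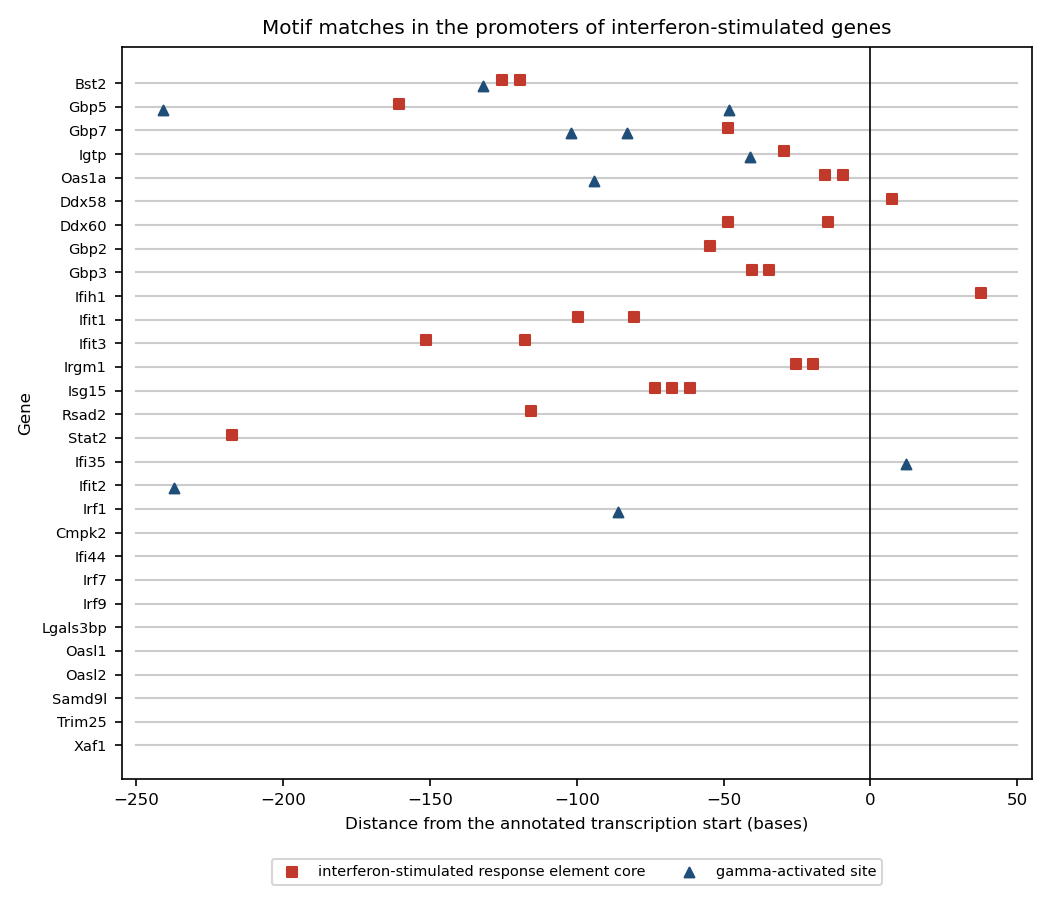
Motif matches in the promoters of the 29 interferon-stimulated genes with an entry. The x axis is the distance in bases from the annotated transcription start, squares are matches to the response element core and triangles are matches to the gamma-activated site. Of 25 response element matches, 20 lie within 150 bases before the start, and 10 genes at the bottom hold neither motif.

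The libraries held 22.4 to 44.7 M counted reads, of which the 40 genes together took 0.0230% to 0.0998%. Ganglion cell markers were lower after crush, 9 of 12 with inhibitor and 8 of 12 with vehicle, while 0 of 10 rod markers were called in either contrast by edgeR (1 in each at an unadjusted p under 0.05). Mitochondrial genes took 4.54% of the counts in uncrushed vehicle replicate 1 and at most 3.13% in the other libraries. One library stood apart in the genes described here. In crushed inhibitor replicate 4 every one of the 40 genes was at its highest among the 5 crushed inhibitor libraries, whereas 18.7% of all tested genes were highest there. The summed level of the 40 genes, in the authors' nRPKM (reads per kilobase of gene, scaled for the size of each library), was 157.8, 163.5, 122.2, 315.3 and 104.3 in crushed inhibitor replicates 1 to 5, against 79.9, 69.1, 65.4, 69.4 and 75.4 in uncrushed inhibitor retinas. With vehicle it was 153.6, 166.5 and 115.5 in crushed retinas, against 77.4, 79.3 and 77.2 in uncrushed retinas. Crushed and uncrushed sums did not overlap under either drug, and the crushed inhibitor sums spanned those of crushed vehicle. Replicate 4 of the crushed inhibitor group was not shallow, at 32.9 M reads. Without it, the changes after crush with inhibitor of Ifit1, Usp18 and Mx2 moved by over 1.5 times in fold, and these are given both ways beside the medians and counts of the whole list.

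After crush, the changes of the 40 interferon-stimulated genes were all positive under both drugs. Crushed over uncrushed retina, 38 of 40 genes rose with the inhibitor and 0 fell, where 3.29% of all tested genes were called higher, 2.04% lower and 5.33% in either direction (edgeR quasi-likelihood test, Benjamini-Hochberg adjusted p of 0.05 or less). With vehicle 7 of 40 rose and 0 fell, where 1.77% of all tested genes were called higher, 0.861% lower and 2.63% in either direction. The 2 genes not called with inhibitor were Stat2 and Gbp4. The 7 called with vehicle were Gbp2, Bst2, Gbp3, Irf9, Ifit1, Oasl2 and Rsad2, and all 7 were also called with inhibitor. With 1 library left out in turn the vehicle count ran from 1 to 23, where 276 to 506 of all tested genes were called. The counts under the 2 drugs rest on 5 against 5 and on 3 against 3 libraries, and a test of the difference of the crush effects called 0 of 40 genes, where 0.0103% of all tested genes were called (0 at an unadjusted p under 0.05 by edgeR, and 0 by DESeq2). The median log2 change was 1.52 with inhibitor and 0.97 with vehicle, beside medians over all tested genes of -0.0012 and -0.0028. At an unadjusted p under 0.05 the counts were 40 with inhibitor and 35 with vehicle. In a whole retina, more cells of a responding type and more RNA per cell cannot be told apart.

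Library by library, the groups did not overlap for most genes. With inhibitor the lowest crushed library was above the highest uncrushed one for 35 of 40 genes (3.51% of all tested genes), and 0 genes lay wholly lower (3.2% of all tested genes), the other 5 being Stat2, Gbp4, Samd9l, Ifi27 and Lgals3bp. With vehicle this held for 36 of 40 genes (8.28% of all tested genes), and 0 genes lay wholly lower (4.65% of all tested genes), the other 4 being Gbp4, Igtp, Iigp1 and Cmpk2. The median of the 40 log2 differences from the uncrushed mean of the same drug was 1.22, 1.40, 0.99, 2.48 and 0.65 in crushed inhibitor replicates 1 to 5. In crushed vehicle replicates 1 to 3 it was 1.13, 1.14 and 0.58. Replicate 5 was the lowest crushed inhibitor library for 31 genes, and replicate 3 the lowest crushed vehicle library for 35 genes; the second is among the 2 shallowest libraries, at 25.4 M reads. Crushed vehicle replicate 3 and crushed inhibitor replicate 5 still had 39 of 40 genes above their uncrushed mean.

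**Figure D2:**
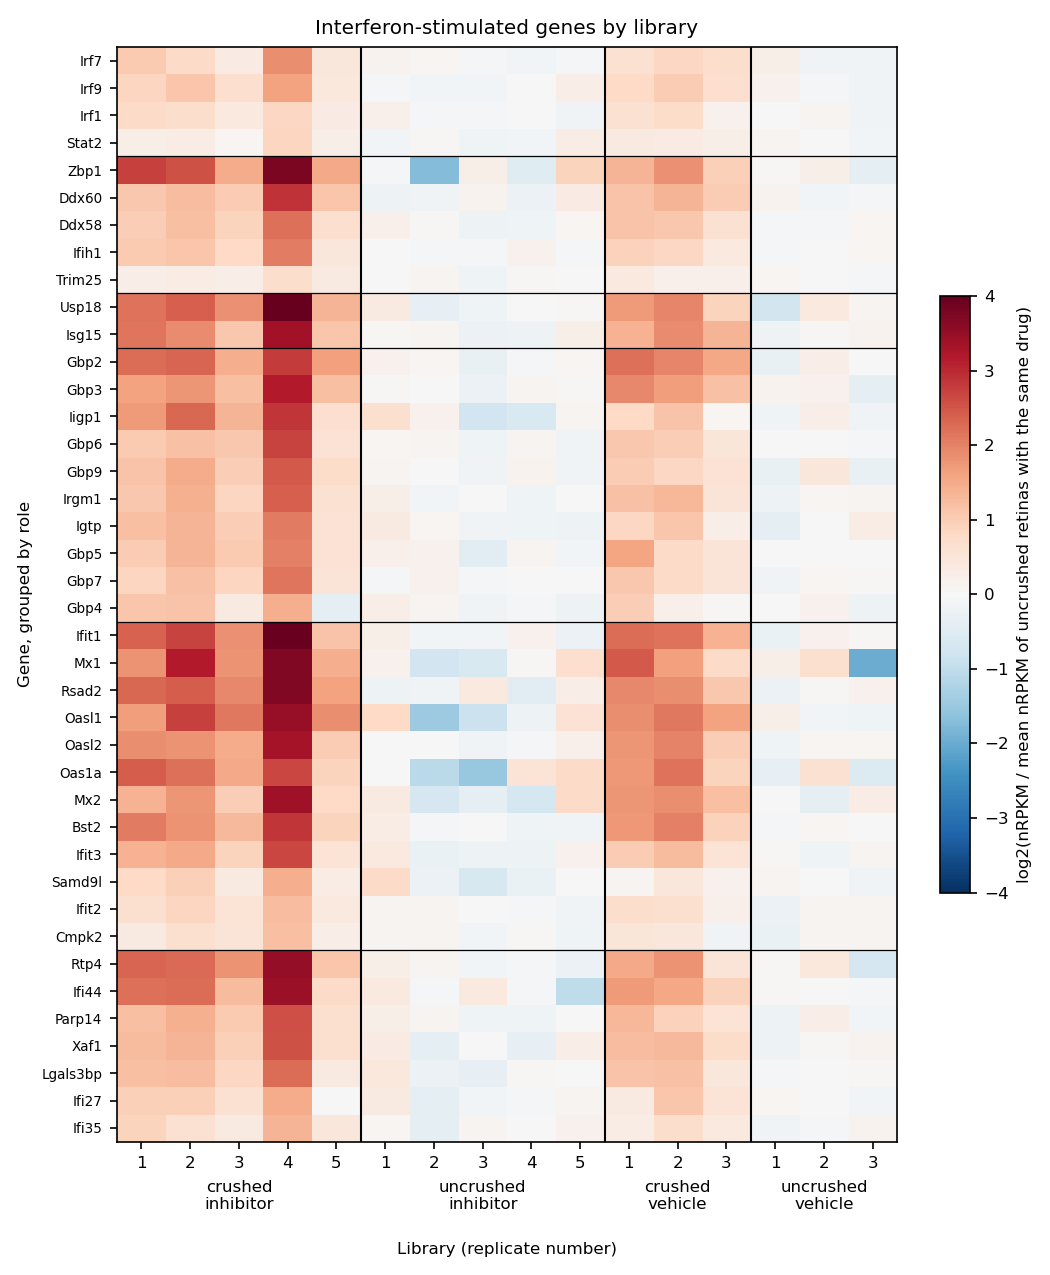
Level of each of the 40 genes (rows, grouped by role) in each of 16 libraries (columns, by group and replicate number), as log2 of the nRPKM over the mean nRPKM of uncrushed retinas given the same drug. Red is higher and blue is lower; crushed inhibitor replicate 4 is the darkest column, with a median of 2.48 on the TMM-scaled log2 CPM scale.

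**Figure D3:**
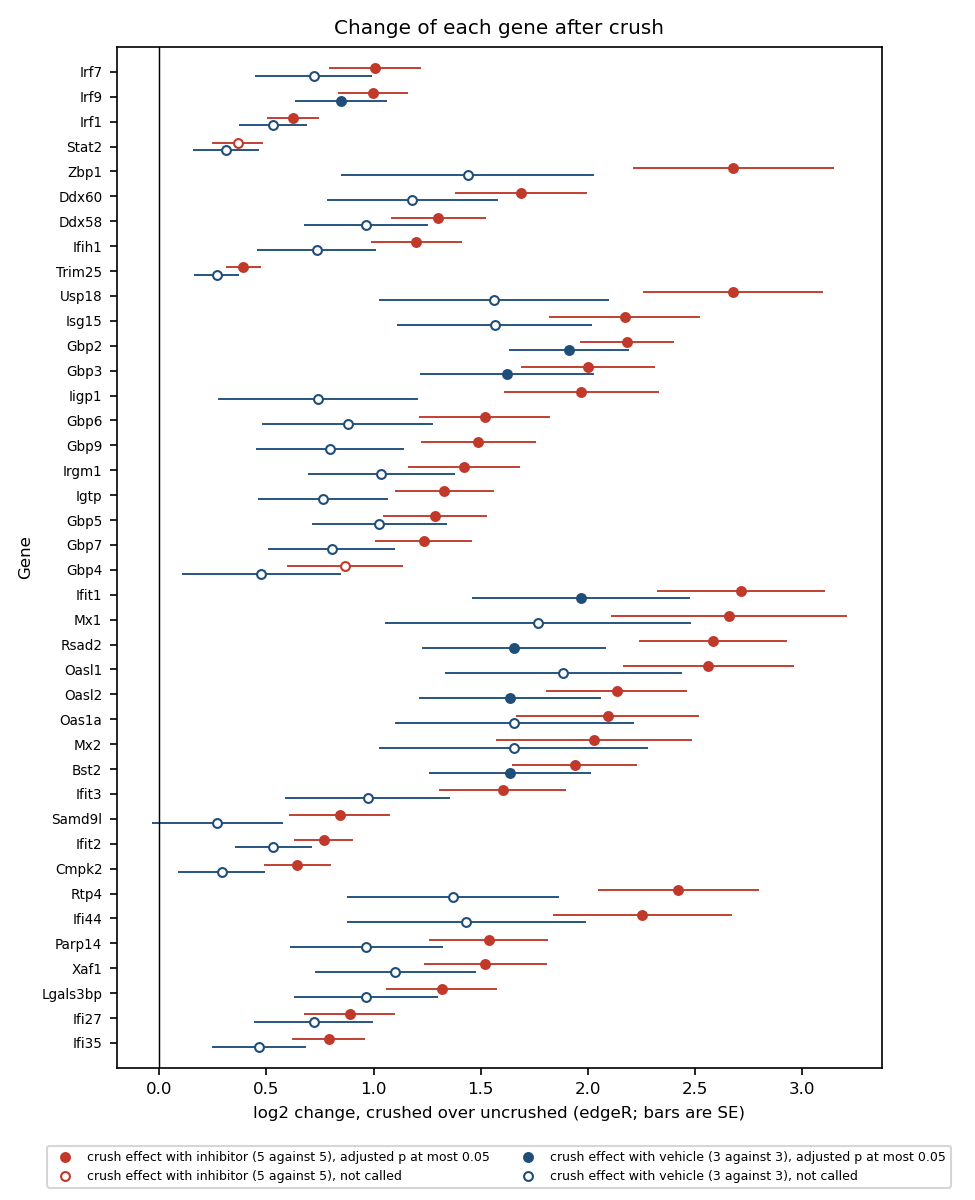
Log2 change of each gene, crushed over uncrushed, with inhibitor (red, 5 against 5) and with vehicle (blue, 3 against 3), from edgeR; bars are SE. Filled points have an adjusted p of 0.05 or less: 38 with inhibitor and 7 with vehicle.

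The transcription factors of the response rose with the inhibitor in 3 of 4 cases and with vehicle in 1 of 4. Their median log2 change with inhibitor was 0.81, beside 1.52 for all 40 genes. Irf9 measured 11.5, 13.9, 10.2, 19.4 and 8.47 nRPKM in crushed inhibitor retinas, against 6.11, 5.93, 5.96, 6.26 and 7.66 in uncrushed inhibitor retinas. With vehicle Irf9 measured 11.2, 12.9 and 10.2 in crushed retinas, against 7.14, 6.22 and 5.77 in uncrushed retinas. Irf9, the DNA-binding subunit that joins STAT2, was higher in every crushed library than in any uncrushed library of the same drug. It rose by 1.00 ± 0.16 on the log2 scale (± SE) with inhibitor (adjusted p 0.000934) and by 0.85 ± 0.21 with vehicle (adjusted p 0.0405, up to 0.17 with 1 library left out). Irf1 measured 2.37, 2.28, 1.82, 2.45 and 1.75 nRPKM in crushed inhibitor retinas, against 1.59, 1.34, 1.32, 1.42 and 1.27 in uncrushed inhibitor retinas. With vehicle Irf1 measured 2.12, 2.32 and 1.59 in crushed retinas, against 1.42, 1.51 and 1.25 in uncrushed retinas. Irf1, an early factor induced by interferon gamma, showed no overlap between crushed and uncrushed libraries, and its crushed inhibitor replicate 4 was close to replicates 1 and 2. Its change was 0.62 ± 0.12 with inhibitor (adjusted p 0.00349) and 0.53 ± 0.16 with vehicle (adjusted p 0.0973). Irf7 measured 9.06, 7.46, 5.52, 16.1 and 6.09 nRPKM in crushed inhibitor retinas, against 4.85, 4.61, 4.25, 4.11 and 4.21 in uncrushed inhibitor retinas. With vehicle Irf7 measured 9.2, 10.5 and 9.65 in crushed retinas, against 7.02, 5.42 and 5.47 in uncrushed retinas. Irf7, which amplifies type I interferon production, was also separated by crush under both drugs, and in uncrushed retinas every inhibitor library lay below every vehicle library. It rose by 1.01 ± 0.21 with inhibitor (adjusted p 0.00711), and its change with vehicle was 0.72 ± 0.27 (adjusted p 0.266). Stat2 measured 9.75, 10.2, 8.88, 15.1 and 9.86 nRPKM in crushed inhibitor retinas, against 7.74, 8.72, 7.41, 7.76 and 10.2 in uncrushed inhibitor retinas. With vehicle Stat2 measured 12.5, 12.3 and 11.7 in crushed retinas, against 10.6, 9.84 and 9.01 in uncrushed retinas. Stat2, the signal transducer of type I and III interferons, overlapped between crushed and uncrushed inhibitor libraries, because uncrushed replicate 5 was above 3 of the crushed libraries, and its changes of 0.37 ± 0.12 and 0.31 ± 0.15 were not called (adjusted p 0.0936 and 0.514).

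All 5 sensors and their cofactors rose with the inhibitor and 0 of 5 were called with vehicle by edgeR, although all 5 had an unadjusted p under 0.05 there. Ddx58 measured 2.12, 2.52, 1.99, 4.97 and 1.75 nRPKM in crushed inhibitor retinas, against 1.25, 1.12, 0.936, 0.972 and 1.14 in uncrushed inhibitor retinas. With vehicle Ddx58 measured 2.48, 2.41 and 1.74 in crushed retinas, against 1.1, 1.11 and 1.2 in uncrushed retinas. Ddx58 encodes RIG-I, a cytosolic sensor of viral RNA. Its crushed and uncrushed libraries did not overlap under either drug, and crushed inhibitor replicate 4 was the highest of the 16 libraries. Ddx58 rose by 1.30 ± 0.22 with inhibitor (adjusted p 0.00134), and its change with vehicle was 0.96 ± 0.29 (adjusted p 0.104). DESeq2 did call Ddx58 higher with vehicle (adjusted p 0.0215). Ifih1 measured 1.71, 1.79, 1.42, 3.39 and 1.14 nRPKM in crushed inhibitor retinas, against 0.824, 0.787, 0.783, 0.921 and 0.793 in uncrushed inhibitor retinas. With vehicle Ifih1 measured 1.75, 1.63 and 1.2 in crushed retinas, against 0.883, 0.898 and 0.969 in uncrushed retinas. Ifih1 encodes MDA5, a sensor of long double-stranded RNA, and it too was separated by crush under both drugs, with log2 changes of 1.20 ± 0.21 (adjusted p 0.00187) with inhibitor and 0.74 ± 0.28 (adjusted p 0.263) with vehicle. Zbp1 measured 0.4, 0.354, 0.166, 0.811 and 0.17 nRPKM in crushed inhibitor retinas, against 0.0584, 0.018, 0.0708, 0.0424 and 0.11 in uncrushed inhibitor retinas. With vehicle Zbp1 measured 0.258, 0.362 and 0.196 in crushed retinas, against 0.105, 0.12 and 0.078 in uncrushed retinas. Zbp1, a sensor of Z-form nucleic acids that can start necroptosis, was near the lower end of detection in uncrushed retina and higher in every crushed library. Its log2 change of 2.68 ± 0.47 with inhibitor (adjusted p 0.00164) was close to those of Ifit1, Usp18 and Mx1, and its change with vehicle was 1.44 ± 0.59 (adjusted p 0.333). Ddx60, a helicase of the same pathway, changed by 1.69 ± 0.31 and Trim25, the ubiquitin ligase that acts with RIG-I, by 0.39 ± 0.08 with inhibitor. With vehicle DESeq2 gave changes of 1.17 for Ddx60 and 0.265 for Trim25.

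Both genes of the ISG15 system rose with the inhibitor. Isg15 measured 5.55, 4.59, 2.62, 12.7 and 2.69 nRPKM in crushed inhibitor retinas, against 1.29, 1.34, 1.06, 1.08 and 1.46 in uncrushed inhibitor retinas. With vehicle Isg15 measured 4.01, 5.61 and 3.9 in crushed retinas, against 1.32, 1.57 and 1.65 in uncrushed retinas. Isg15, a ubiquitin-like protein that is attached to other proteins during the response, was higher in every crushed library than in all of the uncrushed ones. It rose by 2.17 ± 0.35 with inhibitor (adjusted p 0.000823), and its change with vehicle was 1.57 ± 0.46 (adjusted p 0.0896). Usp18 measured 2.68, 3.12, 2.09, 9.4 and 1.5 nRPKM in crushed inhibitor retinas, against 0.754, 0.47, 0.527, 0.58 and 0.609 in uncrushed inhibitor retinas. With vehicle Usp18 measured 2.47, 2.92 and 1.4 in crushed retinas, against 0.456, 0.981 and 0.817 in uncrushed retinas. Usp18, the protease that removes ISG15 and also damps signalling at the type I receptor, was far higher in crushed inhibitor replicate 4 than in the other libraries of that group, which still lay above the uncrushed ones. Its change was 2.68 ± 0.42 with inhibitor (adjusted p 0.000606) and 1.56 ± 0.54 with vehicle (adjusted p 0.187). Without replicate 4 the change with inhibitor was 2.01 (adjusted p 0.000136) for Usp18 and 1.64 (adjusted p 0.00025) for Isg15.

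Of the 10 guanylate-binding and immunity-related GTPases, which assemble on membranes around intracellular pathogens, 9 rose with inhibitor and 2 with vehicle. Gbp2 measured 4.71, 5.04, 2.75, 6.95 and 3.09 nRPKM in crushed inhibitor retinas, against 1.12, 1.06, 0.814, 0.937 and 1.04 in uncrushed inhibitor retinas. With vehicle Gbp2 measured 5.49, 4.66 and 3.51 in crushed retinas, against 0.964, 1.44 and 1.18 in uncrushed retinas. Gbp2, whose promoter above holds 1 response element, had the smallest p of all 40 genes under both drugs, and each crushed library was above all of the uncrushed ones. It rose by 2.18 ± 0.22 with inhibitor (adjusted p 8.14e-06) and by 1.91 ± 0.28 with vehicle (adjusted p 0.00062). Gbp3 measured 3.27, 3.64, 2.47, 9.52 and 2.43 nRPKM in crushed inhibitor retinas, against 1.1, 1.05, 0.91, 1.16 and 1.11 in uncrushed inhibitor retinas. With vehicle Gbp3 measured 4.23, 3.6 and 2.52 in crushed retinas, against 1.24, 1.28 and 0.865 in uncrushed retinas. Gbp3 rose by 2.00 ± 0.31 with inhibitor (adjusted p 0.000577) and by 1.62 ± 0.41 with vehicle (adjusted p 0.0395, up to 0.173 with 1 library left out), with no overlap under either drug. Igtp measured 4.07, 4.55, 3.47, 7.4 and 2.66 nRPKM in crushed inhibitor retinas, against 2.27, 1.87, 1.58, 1.57 and 1.52 in uncrushed inhibitor retinas. With vehicle Igtp measured 3.25, 3.9 and 2.18 in crushed retinas, against 1.43, 1.8 and 2.25 in uncrushed retinas. Igtp, which encodes IRGM3, overlapped with vehicle, where crushed replicate 3 lay below uncrushed replicate 3. It rose by 1.33 ± 0.23 with inhibitor (adjusted p 0.00155), and its change with vehicle was 0.76 ± 0.30 (adjusted p 0.3). Gbp9 measured 0.87, 1.11, 0.779, 2.18 and 0.66 nRPKM in crushed inhibitor retinas, against 0.431, 0.397, 0.362, 0.441 and 0.359 in uncrushed inhibitor retinas. With vehicle Gbp9 measured 1.07, 0.924 and 0.777 in crushed retinas, against 0.43, 0.715 and 0.431 in uncrushed retinas. Gbp9 was separated by crush under both drugs, with changes of 1.49 ± 0.27 with inhibitor (adjusted p 0.0021) and 0.80 ± 0.35 with vehicle (adjusted p 0.392). Iigp1, an interferon gamma-induced GTPase that acts on parasite vacuoles, rose by 1.97 ± 0.36 with inhibitor (adjusted p 0.0024), against a change of 0.74 ± 0.47 with vehicle (adjusted p 0.724). Irgm1, Gbp5, Gbp6 and Gbp7 changed by 1.23 to 1.52 with inhibitor, and by 0.80 to 1.04 with vehicle in DESeq2. Gbp4 was low in all libraries, at 0.371, 0.376, 0.219, 0.466 and 0.134 nRPKM in crushed inhibitor retinas, against 0.205, 0.186, 0.154, 0.162 and 0.149 in uncrushed inhibitor retinas, and its change of 0.87 ± 0.27 was not called (adjusted p 0.0821). Exons of Gbp6 overlap another gene model over 29.0% of their length, the most of the 40 genes. Leaving out any 1 library left the adjusted p of Gbp2 with vehicle at or below 0.00634.

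All 12 antiviral effectors rose with the inhibitor, and 4 of them, Bst2, Ifit1, Oasl2 and Rsad2, also with vehicle. Bst2 measured 14.8, 12.4, 8.61, 25.5 and 6.5 nRPKM in crushed inhibitor retinas, against 4.38, 3.41, 3.57, 3.14 and 3.17 in uncrushed inhibitor retinas. With vehicle Bst2 measured 12.8, 15.4 and 7.29 in crushed retinas, against 3.58, 4.04 and 3.84 in uncrushed retinas. Bst2 encodes tetherin, which holds budding virus at the cell surface, and its promoter holds both motifs. Its lowest crushed library, inhibitor replicate 5, was still above every uncrushed library. Bst2 rose by 1.94 ± 0.29 with inhibitor (adjusted p 0.000414) and by 1.64 ± 0.38 with vehicle (adjusted p 0.0238). Ifit1 measured 3.9, 4.87, 2.66, 11.6 and 1.68 nRPKM in crushed inhibitor retinas, against 0.876, 0.692, 0.7, 0.849 and 0.644 in uncrushed inhibitor retinas. With vehicle Ifit1 measured 3.66, 3.53 and 2.04 in crushed retinas, against 0.641, 0.884 and 0.808 in uncrushed retinas. Ifit1 binds viral RNA that lacks the host cap methylation. It had the largest log2 change of the 40 genes with inhibitor, 2.71 ± 0.39 (adjusted p 0.000288). Without crushed inhibitor replicate 4 that change was 2.13 (adjusted p 7.58e-05), below those of Mx1 (2.23), Zbp1 (2.21) and Oasl1 (2.19). Ifit1 also rose by 1.97 ± 0.51 with vehicle (adjusted p 0.0479). Rsad2 measured 0.741, 0.802, 0.573, 1.97 and 0.458 nRPKM in crushed inhibitor retinas, against 0.133, 0.137, 0.196, 0.11 and 0.18 in uncrushed inhibitor retinas. With vehicle Rsad2 measured 0.915, 0.882 and 0.521 in crushed retinas, against 0.207, 0.251 and 0.274 in uncrushed retinas. Rsad2 encodes viperin, an enzyme that makes a chain terminator of viral RNA synthesis. The crushed and uncrushed libraries of Rsad2 did not overlap, and its uncrushed inhibitor libraries all lay below the uncrushed vehicle ones. It rose by 2.58 ± 0.35 with inhibitor (adjusted p 0.000141) and by 1.65 ± 0.43 with vehicle (adjusted p 0.0493). Oasl2 measured 10.7, 10.3, 8.39, 30.1 and 6.02 nRPKM in crushed inhibitor retinas, against 2.93, 2.97, 2.71, 2.88 and 3.46 in uncrushed inhibitor retinas. With vehicle Oasl2 measured 9.91, 11.4 and 5.82 in crushed retinas, against 2.57, 3.07 and 3.1 in uncrushed retinas. Oasl2, a relative of the oligoadenylate synthetases, has neither motif in the window shown, and it rose by 2.13 ± 0.33 with inhibitor (adjusted p 0.000509) and by 1.64 ± 0.42 with vehicle (adjusted p 0.0493). The calls of these 4 genes with vehicle did not hold against leaving out single libraries.

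**Figure D4:**
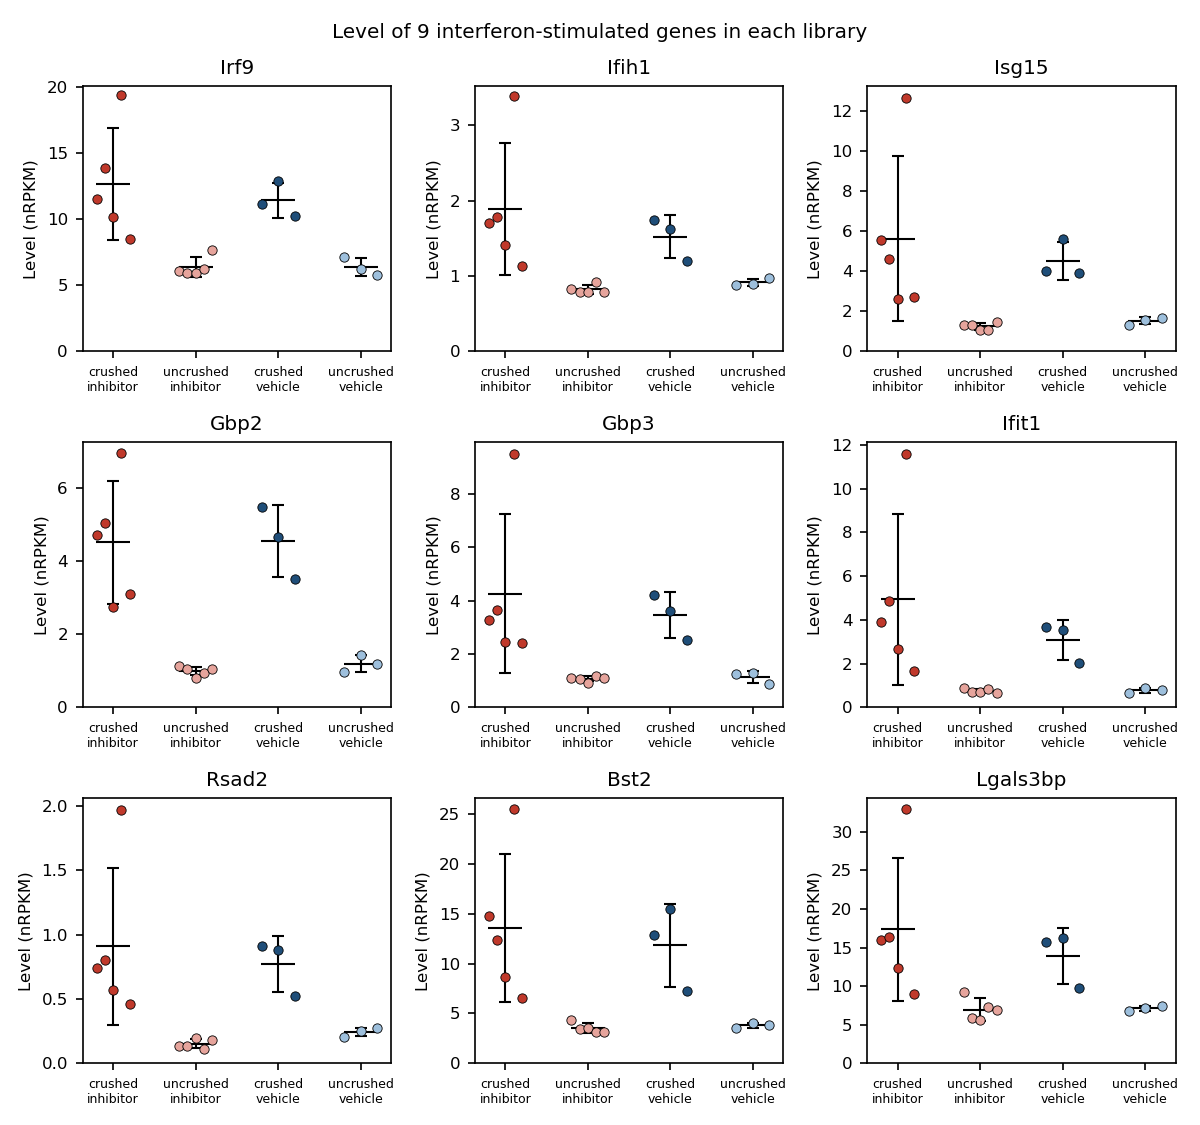
Level in nRPKM (y axis) of 9 of the genes in each library of the 4 groups (x axis); points are libraries, horizontal bars are group means and error bars are SD (n = 5 with inhibitor, n = 3 with vehicle). The highest crushed inhibitor point in each of the 9 panels is replicate 4, and in 8 of the 9 genes the crushed libraries lie above the uncrushed libraries of the same drug; in Lgals3bp the inhibitor groups overlap.

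The other antiviral effectors included the genes with the lowest levels. Mx1 measured 0.0738, 0.194, 0.0743, 0.282 and 0.0592 nRPKM in crushed inhibitor retinas, against 0.0244, 0.0126, 0.0141, 0.0221 and 0.0341 in uncrushed inhibitor retinas. With vehicle Mx1 measured 0.171, 0.0964 and 0.0524 in crushed retinas, against 0.0365, 0.0487 and 0.00775 in uncrushed retinas. Mx1, a dynamin-like GTPase that blocks influenza virus, was the lowest of the 40 genes, and all of its crushed libraries were above the uncrushed ones of the same drug. Oas1a measured 0.344, 0.301, 0.187, 0.416 and 0.119 nRPKM in crushed inhibitor retinas, against 0.0656, 0.0304, 0.0227, 0.0954 and 0.11 in uncrushed inhibitor retinas. With vehicle Oas1a measured 0.246, 0.335 and 0.136 in crushed retinas, against 0.059, 0.112 and 0.0501 in uncrushed retinas. Oas1a makes the second messenger that switches on RNase L, and its lowest crushed inhibitor library was only just above its highest uncrushed one. Mx1 rose by 2.66 ± 0.55 (adjusted p 0.00612) and Oas1a by 2.09 ± 0.43 (adjusted p 0.00553) with inhibitor, and with vehicle their changes were 1.77 ± 0.71 (adjusted p 0.318) and 1.66 ± 0.56 (adjusted p 0.175). The filter asks for enough reads in only as many libraries as the smallest group holds. Genes this low can therefore pass it through their crushed libraries alone. Cmpk2 measured 4.42, 5.37, 4.96, 7.92 and 4.16 nRPKM in crushed inhibitor retinas, against 3.69, 3.7, 3.17, 3.57 and 3.05 in uncrushed inhibitor retinas. With vehicle Cmpk2 measured 4.74, 4.57 and 3.03 in crushed retinas, against 2.8, 3.63 and 3.66 in uncrushed retinas. Cmpk2, a mitochondrial nucleotide kinase, overlapped with vehicle, where crushed replicate 3 lay below 2 uncrushed libraries. It rose by 0.64 ± 0.16 with inhibitor (adjusted p 0.018), and the adjusted p was 0.0527 without uncrushed inhibitor replicate 3. Its change with vehicle was 0.29 ± 0.20 (adjusted p 0.783). Ifit2, Ifit3, Oasl1 and Mx2 changed by 0.77 to 2.56 with inhibitor. Mx2, a relative of Mx1, rose by 2.03 ± 0.46 (adjusted p 0.0111), and by 1.31 (adjusted p 0.0175) without crushed inhibitor replicate 4. Samd9l, a restriction factor of poxviruses, rose by 0.84 ± 0.24 (adjusted p 0.0447), and 12 of the 16 single-library omissions ended the call, at an adjusted p of up to 0.139. The call held without crushed inhibitor replicate 3 or 5, uncrushed inhibitor replicate 1 or uncrushed vehicle replicate 1. With vehicle DESeq2 gave changes of 0.53 to 1.89 for Ifit2, Ifit3, Oasl1 and Mx2, and of 0.26 for Samd9l.

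The 7 remaining genes all rose with the inhibitor and 0 were called with vehicle by edgeR, although all 7 had an unadjusted p under 0.05 there. Rtp4 measured 1.56, 1.5, 1.07, 3.57 and 0.669 nRPKM in crushed inhibitor retinas, against 0.368, 0.333, 0.285, 0.299 and 0.266 in uncrushed inhibitor retinas. With vehicle Rtp4 measured 1.04, 1.26 and 0.524 in crushed retinas, against 0.38, 0.488 and 0.23 in uncrushed retinas. Rtp4, a chaperone of membrane receptors that interferon induces, was higher in every crushed library than in any uncrushed library of its drug. It rose by 2.42 ± 0.38 with inhibitor (adjusted p 0.000555), and its change with vehicle was 1.37 ± 0.50 (adjusted p 0.23). Parp14 measured 1.3, 1.5, 1.16, 3.37 and 0.884 nRPKM in crushed inhibitor retinas, against 0.663, 0.614, 0.501, 0.499 and 0.556 in uncrushed inhibitor retinas. With vehicle Parp14 measured 1.59, 1.21 and 0.917 in crushed retinas, against 0.547, 0.762 and 0.586 in uncrushed retinas. Parp14, an ADP-ribosyltransferase, was likewise separated by crush, with changes of 1.54 ± 0.28 (adjusted p 0.00204) with inhibitor and 0.97 ± 0.36 (adjusted p 0.249) with vehicle. Lgals3bp measured 16, 16.3, 12.4, 33 and 8.97 nRPKM in crushed inhibitor retinas, against 9.25, 5.92, 5.57, 7.26 and 6.85 in uncrushed inhibitor retinas. With vehicle Lgals3bp measured 15.7, 16.2 and 9.76 in crushed retinas, against 6.75, 7.22 and 7.43 in uncrushed retinas. Lgals3bp, a secreted protein that binds galectin-3, had the highest mean level per length of the 40 genes. Its inhibitor groups overlapped, since uncrushed replicate 1 was above crushed replicate 5, and it rose by 1.32 ± 0.26 with inhibitor (adjusted p 0.00417) beside a change of 0.96 ± 0.34 with vehicle (adjusted p 0.199). Ifi44 measured 0.436, 0.438, 0.224, 1.02 and 0.161 nRPKM in crushed inhibitor retinas, against 0.124, 0.0887, 0.122, 0.0882 and 0.0464 in uncrushed inhibitor retinas, with no overlap and a change of 2.25 ± 0.42 (adjusted p 0.00259). Xaf1, a regulator of apoptosis, changed by 1.52 ± 0.29 and Ifi35 by 0.79 ± 0.17. Ifi27, a mitochondrial protein, changed by 0.89 ± 0.21 (adjusted p 0.0165). Without crushed inhibitor replicate 4 its adjusted p was 0.0513, and the call was also lost without uncrushed inhibitor replicate 2. With vehicle DESeq2 gave changes of 1.43 for Ifi44, 1.10 for Xaf1, 0.46 for Ifi35 and 0.71 for Ifi27.

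The 7 calls with vehicle depended on single libraries more than the 38 with inhibitor did. One library is a larger part of a vehicle group (n = 3) than of an inhibitor group (n = 5), so the 2 are not compared on equal terms. Leaving out each of the 16 libraries in turn gave 36 to 39 called genes with inhibitor and 1 to 23 with vehicle. Over all tested genes, 748 to 1258 were then called with inhibitor and 276 to 506 with vehicle. The count with vehicle was 1, Gbp2 alone, when crushed vehicle replicate 1 or 2, or any of the 3 uncrushed vehicle libraries, was left out. It was 23 without crushed inhibitor replicate 4, a library outside that contrast but inside the shared estimate of the spread; 499 of 19415 tested genes were then called. These 23 held the 7 and 16 more. Leaving out single uncrushed inhibitor libraries also ended the vehicle calls of Gbp3, Ifit1, Oasl2 and Rsad2 (any of the 5) and of Irf9 (replicates 1 to 4). Crushed inhibitor replicate 1 or 2 did so for Ifit1, Oasl2 and Rsad2, and crushed vehicle replicate 3 for Irf9. Adjusted p reached 0.17 for Irf9, 0.173 for Gbp3, 0.113 for Bst2, 0.169 for Ifit1, 0.178 for Oasl2 and 0.189 for Rsad2.

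Whether the inhibitor changed the genes was asked in crushed and in uncrushed retina and as the difference of the crush effects. In each of the 3 comparisons edgeR called 0 of 40 genes, and 0 had an unadjusted p under 0.05 in edgeR. DESeq2 also called 0, but not every gene received an adjusted p from it. In crushed retina it gave none for Mx1, Oas1a, Oasl1 and Zbp1. In uncrushed retina it gave none for these and for Gbp4, Ifi44, Iigp1, Mx2 and Rtp4. Among all tested genes 0.505% were called in crushed retina (0.129% higher and 0.376% lower), 0.629% in uncrushed retina (0.263% higher and 0.366% lower) and 0.0103% in the difference (0% higher). Inhibitor over vehicle in crushed retina, the 40 log2 changes had a median of 0.31 and 36 were positive, beside a median of 0.01 over all tested genes. In uncrushed retina their median was -0.15 and 33 were negative. The difference of the crush effects, inhibitor minus vehicle, was positive for all 40 genes, with a median of 0.43; both inhibitor comparisons and both crush effects share their libraries with it.

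The sign of the median in crushed retina rested on 1 library, and the other 2 kept theirs. Without crushed inhibitor replicate 4, the median inhibitor effect in crushed retina was -0.03, with 15 changes positive and 25 negative. The median difference of the crush effects was then 0.10, with 29 positive and 11 negative, and the median in uncrushed retina was -0.15. The median crush effect with inhibitor was 1.09, with all 40 changes positive and 36 genes called (892 of 19415 tested genes called), and that with vehicle was 0.96. The 2 genes that lost their call with inhibitor were Ifi27 and Samd9l.

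Single genes show how wide the inhibitor effect remained. For Cmpk2, with the smallest p in crushed retina, the log2 change was 0.38 ± 0.18 (95% interval -0.00 to 0.76, adjusted p 0.366), and without crushed inhibitor replicate 4 it was 0.20. For Rtp4 it was 0.81 ± 0.40 (-0.03 to 1.66, adjusted p 0.382), and 0.34 without that library. Gbp2 gave -0.02 ± 0.23 (-0.50 to 0.47), Irf9 0.15 ± 0.19 (-0.24 to 0.54) and Ifit1 0.68 ± 0.42 (-0.20 to 1.55) in crushed retina. The intervals of Gbp2 and Irf9 leave out a change as large as the rise of each gene after crush, while those of low genes such as Zbp1 (-0.50 to 1.40) and Mx1 (-0.73 to 1.41) are wide. The libraries of the 2 drugs overlapped in crushed retina for all 40 genes, where 4.83% of all tested genes were wholly higher and 4.87% wholly lower with inhibitor. In uncrushed retina 3 genes were wholly lower with inhibitor (4.51% of all tested genes), Irf7 at -0.43 ± 0.25, Gbp6 at -0.26 ± 0.37 and Rsad2 at -0.71 ± 0.43, and 0 were wholly higher (5.03% of all tested genes). The largest difference of crush effects with respect to its error was that of Iigp1, 1.23 ± 0.59 (-0.03 to 2.48); without crushed inhibitor replicate 4 it was 0.89.

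Microglia markers moved with crush as well. Of 15 microglia markers 12 rose with inhibitor and 5 with vehicle. Their summed level was 95.6, 90.0, 57.4, 71.5 and 51.1 nRPKM in crushed inhibitor replicates 1 to 5, against 50.3, 34.8, 37.7, 38.8 and 36.0 in uncrushed inhibitor retinas. With vehicle it was 71.4, 79.8 and 66.0 in crushed retinas, against 43.3, 44.2 and 46.3 in uncrushed retinas. The groups did not overlap under either drug, and the part of microglia in the rise of the interferon-stimulated genes was not tested. In crushed inhibitor replicate 4, where all 40 genes peaked, 0 of 15 microglia markers were highest, and its microglia sum was the third of 5. Replicates 1 and 2 of that group were above replicates 3 and 5 both in this sum and in that of the 40 genes. Crushed vehicle replicate 2 was the highest and replicate 3 the lowest of its group in both sums. Uncrushed inhibitor replicate 1 was the highest of its group in both. Uncrushed vehicle replicate 3 was the highest in microglia and the lowest in the 40 genes. Of 18 markers of infiltrating leukocytes, 5 were abundant enough to test, and edgeR called 0 in both crush contrasts (1 with inhibitor and 0 with vehicle at an unadjusted p under 0.05). The sum of the 18 was 0.99 to 1.20 nRPKM in crushed inhibitor, 0.80 to 1.75 in uncrushed inhibitor, 1.05 to 1.54 in crushed vehicle and 0.97 to 1.46 in uncrushed vehicle retinas. The T cell genes Cd3e, Cd3d and Cd3g were at 0 in 12, 13 and 13 of 16 libraries, and the cytotoxic granule gene Gzmb in 15. Of 10 markers of Müller glia and astrocytes 3 rose with inhibitor (Gfap, Vim and Clu) and 2 with vehicle (Gfap and Vim). Gfap, an intermediate filament of reactive glia, averaged 23.0 nRPKM (13.8 to 38.8) in crushed inhibitor retinas, against 6.39 (4.70 to 9.05) in uncrushed inhibitor retinas. With vehicle Gfap averaged 26 (23.3 to 29.2) in crushed retinas, against 6.65 (5.66 to 8.28) in uncrushed retinas. Gfap rose by 1.85 ± 0.24 with inhibitor (adjusted p 0.000102) and by 1.97 ± 0.31 with vehicle (adjusted p 0.00126), with no overlap. The summed level of the 10, in which none was at 0 in any library, was 1883 to 2452 nRPKM in crushed inhibitor, 1882 to 2526 in uncrushed inhibitor, 1933 to 2362 in crushed vehicle and 1917 to 2255 in uncrushed vehicle retinas. The part of these glia was not tested either. Of 10 endothelial and pericyte markers edgeR called 0 in both crush contrasts (1 with inhibitor and 0 with vehicle at an unadjusted p under 0.05). Of 7 pigment epithelium markers edgeR called 0 in both (0 with inhibitor and 1 with vehicle at an unadjusted p under 0.05). All 8 lens markers had negative changes with crush under both drugs, at median log2 changes of -3.14 with inhibitor, where 5 fell, and -3.69 with vehicle, where edgeR called 0 (5 at an unadjusted p under 0.05). Their summed level was 2.08 to 18.1 nRPKM in crushed inhibitor, 10.9 to 470.9 in uncrushed inhibitor, 0.72 to 15.5 in crushed vehicle and 0.94 to 210 in uncrushed vehicle retinas, and their part was not tested.

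**Figure D5:**
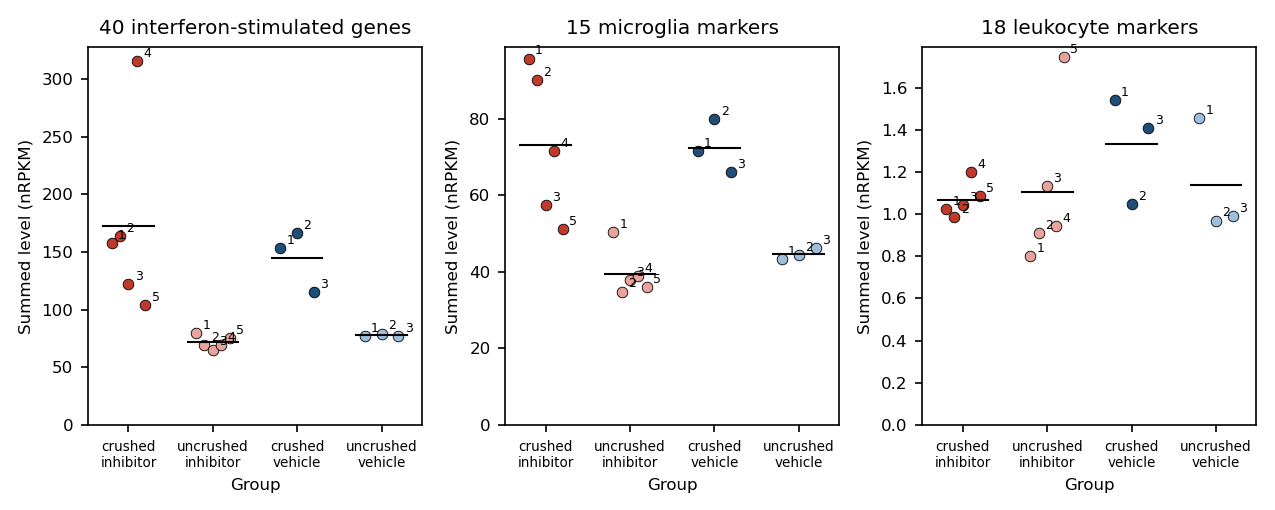
Summed level in nRPKM (y axis) of the 40 interferon-stimulated genes, 15 microglia markers and 18 leukocyte markers in each library (points, numbered by replicate) of the 4 groups (x axis); bars are group means. Crushed inhibitor replicate 4 holds 315.3 nRPKM of interferon-stimulated genes, while its microglia sum, 71.5, lies within the range of its group. Replicates 1 and 2 of that group are above replicates 3 and 5 in both sums.

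Upstream of the 40 genes, interferons themselves were barely read. Of 105 other genes of the pathway in a chosen list, 76 could be tested, and 35 rose with inhibitor and 9 with vehicle, with 0 lower in either. Of 21 interferon ligand genes 0 passed the filter, and none had more than 2 reads in a library. Ifnb1 had 1 read each in crushed inhibitor replicate 1 and crushed vehicle replicate 2, Ifng 5 reads over all 16 libraries, Ifnk 5, Ifnz 10, and Ifna13 and Ifnl2 1 each, and the other 15 were at 0. A change in interferon transcripts between groups was not detectable at this depth. All 6 receptor subunits were tested and edgeR called 0 in both crush contrasts (2 with inhibitor and 1 with vehicle at an unadjusted p under 0.05). Ifnar1, a subunit of the type I receptor, measured 7.28, 7.38, 7.7, 7.86 and 7.37 nRPKM in crushed inhibitor retinas, against 7.23, 7.8, 7.38, 7.49 and 7.45 in uncrushed inhibitor retinas. With vehicle Ifnar1 measured 8.14, 7.15 and 7.3 in crushed retinas, against 6.59, 7.07 and 6.89 in uncrushed retinas.

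Between receptor and target, 3 of 7 receptor kinases and signal transducers rose with inhibitor and 2 with vehicle, at median log2 changes of 0.15 and 0.18 over the 7. Stat3 and Irf8 rose under both drugs. Stat3 measured 30.0, 36.2, 27.1, 27.6 and 25.8 nRPKM in crushed inhibitor retinas, against 13.2, 13.6, 12.1, 13.2 and 13.7 in uncrushed inhibitor retinas. With vehicle Stat3 measured 33.3, 27.8 and 31.1 in crushed retinas, against 12.9, 15 and 14.6 in uncrushed retinas. Stat3, which serves interleukin-6 type cytokines, rose by 1.16 ± 0.08 with inhibitor (adjusted p 1.79e-07) and by 1.12 ± 0.11 with vehicle (adjusted p 7.74e-06). Its crushed and uncrushed libraries did not overlap, and its crushed inhibitor replicate 4 was the third of 5 libraries. Irf8, a factor of myeloid cells, rose by 0.96 ± 0.14 with inhibitor (adjusted p 0.000356) and 0.97 ± 0.19 with vehicle (adjusted p 0.00606). Of 9 negative regulators 1 rose with inhibitor and 2 with vehicle. Socs3, a feedback inhibitor of STAT3 signalling, rose by 1.20 ± 0.19 with inhibitor (adjusted p 0.000553) and by 1.30 ± 0.24 with vehicle (adjusted p 0.00456). Ptpn1, a phosphatase that acts on receptor-bound kinases, rose by 0.30 ± 0.07 with vehicle (adjusted p 0.0191, and up to 0.106 when replicate 1 or 2 of either vehicle group was left out), and its change with inhibitor was 0.18 ± 0.05 (adjusted p 0.0515). Of 14 tested inducers of interferon, 5 rose with inhibitor, among them the endosomal RNA receptor Tlr7 (1.32 ± 0.26, adjusted p 0.00441) and the adaptor Myd88 (0.41 ± 0.08, adjusted p 0.00518), and 1, Irf5, with vehicle (0.78 ± 0.18, adjusted p 0.0192, and up to 0.0898 when replicate 1 or 2 of either vehicle group was left out).

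Of 47 other listed interferon-induced genes 40 were tested, and 26 rose with inhibitor and 4 with vehicle. The other 14 and 36 were not called, and 39 of 40 changes were positive under each drug. Cxcl10 measured 1.08, 2.01, 1.16, 2.36 and 1.25 nRPKM in crushed inhibitor retinas, against 0.0466, 0.036, 0.0606, 0.0212 and 0.147 in uncrushed inhibitor retinas. With vehicle Cxcl10 measured 2.81, 1.79 and 0.843 in crushed retinas, against 0.0698, 0.14 and 0.111 in uncrushed retinas. Cxcl10, a chemokine that draws T cells, had at least 0.84 nRPKM in every crushed library and at most 0.15 in every uncrushed one. It rose by 4.66 ± 0.44 with inhibitor (adjusted p 4.14e-06) and by 3.99 ± 0.52 with vehicle (adjusted p 0.000196). Nlrc5 measured 0.298, 0.344, 0.194, 0.721 and 0.26 nRPKM in crushed inhibitor retinas, against 0.0624, 0.071, 0.0626, 0.0567 and 0.0759 in uncrushed inhibitor retinas. With vehicle Nlrc5 measured 0.392, 0.387 and 0.301 in crushed retinas, against 0.0983, 0.0703 and 0.094 in uncrushed retinas. Nlrc5, the transactivator of MHC class I genes, rose by 2.46 ± 0.29 with inhibitor (adjusted p 4.35e-05) and by 2.06 ± 0.38 with vehicle (adjusted p 0.00427), with no overlap under either drug. The other 2 called with vehicle were Ifi204, a DNA sensor of the PYHIN family (2.28 ± 0.51, adjusted p 0.0198, and up to 0.0968 when replicate 2 of either vehicle group, or uncrushed vehicle replicate 3, was left out), and Psmb8, an immunoproteasome subunit (1.04 ± 0.26, adjusted p 0.0372, and up to 0.169, lost without each of 7 single libraries). Of these 40 genes 33 were highest in crushed inhibitor replicate 4 among the crushed inhibitor libraries. Of the 76 tested pathway genes edgeR called 0 for the inhibitor in crushed retina, in uncrushed retina and in the difference of the crush effects, with 3, 8 and 1 at an unadjusted p under 0.05. DESeq2 called 1 lower in crushed, 1 higher in uncrushed retina and 0 in the difference.

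How closely the 40 genes varied together within groups depended on 1 library. After the group means were removed, the median Pearson correlation of a gene with the other 39 ranged from 0.60 for Trim25 to 0.87 for Irgm1 over 16 libraries. Without crushed inhibitor replicate 4 it ranged from 0.08 for Trim25 to 0.76 for Ifit1 over 15 libraries, and its median over the 40 genes was 0.61, against 0.80 with that library. Each pair of values comes from the same library, so these correlations describe these libraries and carry no test.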

How the data were processed

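RNA was sequenced as single reads of 50 bases on a HiSeq4000 from 0.5 µg of total RNA with a TruSeq poly(A) kit, per the labels' protocols. The authors' deposited count tables give whole numbers of uniquely aligned reads per Entrez identifier. Per the submitters' processing notes, reads were aligned to GRCm38 with GSNAP. The deposited nRPKM, an RPKM value scaled per library by the authors, was used for levels only. Its scaling and the gene annotation are not described in what was used here. The library kit keeps no strand, so antisense overlaps share reads.

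Libraries were grouped by the labels for eye and drug. Labels state 5 mice per drug; the 3 crushed and 3 uncrushed vehicle libraries at hand were used, and no other vehicle retina was analysed here. No 2 libraries were copies of each other. The 16 libraries entered 1 edgeR fit (edgeR 4.0.16, R 4.3.3; filterByExpr, TMM, quasi-likelihood F test, 1 mean per group, 12 residual degrees of freedom), two-sided, with Benjamini-Hochberg adjustment over 19391 genes. SE and 95% intervals are from that fit. Fold changes are on the log2 scale of TMM-scaled counts. Overlap between groups was read from TMM-scaled CPM. DESeq2 1.42.0, RLE factors, library totals, no filter, 2 groups only, a replicate block, leaving out the 2 shallowest libraries and leaving out each library were alternatives. Scripts were tested on simulated data. Symbols (31049 of 36528 identifiers) came from RefSeq, exon overlaps from GENCODE.

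The 40 genes, their role lists, the pathway and marker lists and the motifs were chosen with earlier results of these data known. One pathway gene is counted in its list and not reported here. Values per library are given for up to 3 or 4 genes of each role list with the smallest p after crush. They are also given for the 2 highest and 2 lowest in level. Of the 2 with the smallest p for the inhibitor, Cmpk2 has such values and Iigp1 only its changes. For Ifi44 and Gbp4 only the inhibitor libraries are given. Other genes are given in ranges or with their change, chosen after their values were seen.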

Additional observations from a re-analysis of the deposited data

Results flagged for a closer look

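In groups of 5 libraries the highest or lowest value was compared with its nearest neighbour by Dixon's ratio at the 95% level, over 84 groups, and chance alone picks about 1 in 20. The 40 genes vary together, so these are not independent. Crushed inhibitor replicate 4 stood far above the other 4 libraries of its group in 15 genes. Its levels there were 4.97 nRPKM for Ddx58, 2.48 for Ddx60, 9.52 for Gbp3, 2.11 for Gbp6, 4.28 for Gbp7, 3.39 for Ifih1 and 22.1 for Ifit3. They were 1.62 for Mx2, 30.1 for Oasl2, 3.37 for Parp14, 1.97 for Rsad2, 15.1 for Stat2, 9.03 for Trim25, 9.40 for Usp18 and 3.38 for Xaf1. Its summed level of the 40 genes, 315.3 nRPKM, stood apart in the same way. Gbp7 was high in uncrushed inhibitor replicate 2, at 1.09 nRPKM, and Irf9 in uncrushed inhibitor replicate 5, at 7.66 nRPKM. The summed level of microglia markers was high in uncrushed inhibitor replicate 1, at 50.3 nRPKM.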

How the results depend on the processing

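The count of the 40 genes called after crush with inhibitor was 38, and it was 36 to 39 with 1 library left out and 39 with DESeq2. Under all alternatives the count lay between 35 (2 groups only, where 36 of the 38 could be tested) and 40 (replicate block). With vehicle it was 7, and it was 12 with DESeq2, 16 with only the 2 groups of the contrast, 2 without the 2 shallowest libraries and 1 to 23 with 1 library left out. In all of these the genes called were higher in crushed retina. With vehicle DESeq2 kept the 7 and added Isg15 (adjusted p 0.01075), Ddx58 (0.02147), Gbp5 (0.03626), Oasl1 (0.03732) and Irf1 (0.03752). Over all tested genes, 748 to 1258 were called with inhibitor and 276 to 506 with vehicle when 1 library was left out. The counts over all genes under the other alternatives are not given here. A shift in the 40 genes cannot be told there from one over all genes. Other interferon pathway genes called with vehicle were 9, and 5 without the 2 shallowest libraries and 5 to 19 with 1 library left out. For the inhibitor in crushed retina the pathway count was 0, and 1 (lower) with DESeq2, and 0 to 1 with 1 library left out; in uncrushed retina it was 0, and 1 (higher) with DESeq2. RLE factors, library totals and no filter on low counts moved none of these counts by over 1.5 times. The median within-group correlation of the 40 genes was 0.80, and 0.61 without crushed inhibitor replicate 4, an alternative chosen after seeing the data. Causes were not tested.

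The labels do not pair eyes. A replicate block of consecutive library numbers gave 22 of the 40 genes and 18 pathway genes called with vehicle. The count over all tested genes under that block is not given here, so the 22 cannot be read as particular to these genes. The deviations of such pairs from their group means correlated by 0.09 to 0.65, 7 of 8 crushed libraries correlating best with their own number, which is a hint from the data and not the design. Over the 40 genes alone the correlations ran from -0.23 to 0.08 in the 5 inhibitor pairs, 3 of them negative, and from 0.11 to 0.42 in the 3 vehicle pairs.

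Depth limits the lowest genes most: Mx1, Oas1a and the interferon ligands rest on few reads. With 3 vehicle libraries per group, intervals of the inhibitor effect stay wide, and a p that misses the threshold does not show that the drugs act alike.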

Other observations

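The genes that stood furthest above the other 4 crushed inhibitor libraries in crushed inhibitor replicate 4 were largely interferon-induced. The ranking ran from the highest signed log2 distance from the mean of the other 4 downward, so genes lower in replicate 4 could not enter its top. Lens markers, for 1, summed to 2.08 nRPKM there, against 9.25, 5.32, 16.1 and 18.1 in replicates 1, 2, 3 and 5. Of 15907 genes ranked, the top 40 held 21 of the genes described here, 10 genes of the other pathway lists and 9 in neither list. The first was Usp18, at 2.03, and Oas1b, Ifit1 and Oasl2 followed among others at 1.93, 1.92 and 1.79. The 9 in neither list were Slc15a2, Rnf213, Trim30d, Trim34a, Eps8l1, Lgals9, Oxtr, Trim12a and H2-T23. The median distance was 1.33 over all 40 genes of the list, 34 of which entered the ranking, and 0.0027 over all ranked genes. Genes below a cut on mean level were not ranked, among them Mx2, at 2.07. The uncrushed inhibitor libraries summed to 65.4 to 79.9 nRPKM of the 40 genes, so none of them shared this level.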
